A study of Mus musculus with 58 samples.

Results

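The cytoplasmic ribosomal protein genes are the 82 genes, of 24077 in the count table, whose symbol is Rpl or Rps with a number and at most 1 letter of a, x, y or l, or is Rpsa, Rplp0, Rplp1 or Rplp2. The set holds 32 small subunit and 50 large subunit genes. It was chosen by symbol alone, so it misses ribosome components such as Fau, Rps3a1, Rack1 and Rpl22l1, which are given apart, and it takes in Rps4l, which the RefSeq annotation calls a transcribed pseudogene. The study removed Pcgf1 and Pcgf6, subunits of variant Polycomb repressive complex 1, which ubiquitinates histone H2A, and sequenced RNA from mouse cells with and without them. Fully grown oocytes (FGO) of strain B6.129 gave 2 control (CTR) libraries labelled wild type and 2 Pcgf1/6 double knockout (KO) libraries. Morulae gave 2 CTR libraries and 2 double maternal knockout (matKO) libraries. From extraembryonic ectoderm (ExE), a trophoblast tissue that later forms part of the placenta, there were 2 CTR and 4 matKO libraries. These embryos are labelled B6.129 x PWK, and the table splits their reads into maternal and paternal counts. By their label, matKO embryos lacked the maternal gene products, and they can carry working alleles from the PWK father. The labels name neither the Cre driver, nor the age of the mothers, nor the number or sex of the embryos in a library, and do not say whether the libraries of a group came from separate animals, so p-values measure the spread between libraries, which may be technical.

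Every cytoplasmic ribosome carries a single copy of most of these proteins, and cells make them in matched amounts together with ribosomal RNA. Their mRNAs begin with a short run of C and T bases, the 5′ terminal oligopyrimidine (TOP) tract, through which mTOR signalling sets their translation. Growing oocytes stockpile ribosomes and their mRNAs, the embryo starts to make its own during cleavage, and trophoblast is a fast-dividing tissue. A few ribosomal proteins have paralogs with tissue-restricted expression: Rpl10l and Rpl39l are best known from the male germ line, Rpl3l from muscle, and Rps27l is a target of p53. Free Rpl5 and Rpl11 bind Mdm2 and so link ribosome assembly to p53.

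The C and T run can be read in the annotated start of several members. These 30 bases, 15 before and 15 from the start on, come from RefSeq promoters of GRCm38.p6 and are printed 5′ to 3′ on the gene's strand, with the run that spans the start in capitals. They lie at chr4:86857353-86857382 on the minus strand for Rps6, and on the plus strand at chr11:114668565-114668594 for Rpl38, chr7:141447636-141447665 for Rplp2 and chr7:4792950-4792979 for Rpl28.
Rps6: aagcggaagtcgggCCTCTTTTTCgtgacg
Rpl38: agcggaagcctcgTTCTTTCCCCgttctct
Rplp2: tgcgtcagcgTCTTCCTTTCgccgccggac
Rpl28: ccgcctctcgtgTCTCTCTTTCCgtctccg
RefSeq promoter windows were found for 61 of the 82 members, in 73 windows of 250 bases before and 50 after an annotated start. A run of at least 5 bases of C or T from the start on was present in 17 of the 73 windows (23.3%), against 4.44% of all 32851 windows. The letters CTTTCC on the sense strand, from 15 bases before to 20 after the start, were present in 10 of 73 (13.7%), against 1.66% of all windows. Windows of 1 gene can overlap, and annotated starts can lie some bases away from the start in use.

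Another short sequence was frequent in the same windows. CCGGAAG, which holds the GGAA core bound by ETS factors, stood on either strand in 26 of the 73 windows (35.6%), against 2910 of all 32851 (8.86%). AAGATGGC, bound by the factor Yy1, stood on either strand in 7 of 73 (9.59%), against 2.75% of all windows. The next 4 promoters are those of Rpl39l, its partner Rpl39, and the X-linked Rps4x and Rpl36a, on which results further on turn. Each runs from 120 bases before the outermost annotated start of the gene to 20 after, on the gene's strand in GRCm38.p6, with CCGGAAG on either strand in capitals. Rpl39l is at chr16:10170077-10170216 (plus strand), Rpl39 at chrX:37085203-37085342 (minus), Rps4x at chrX:102189372-102189511 (minus) and Rpl36a at chrX:134585534-134585673 (plus).
Rpl39l: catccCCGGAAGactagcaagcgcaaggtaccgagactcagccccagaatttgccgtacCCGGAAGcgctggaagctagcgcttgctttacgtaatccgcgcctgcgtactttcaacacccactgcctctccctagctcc
Rpl39: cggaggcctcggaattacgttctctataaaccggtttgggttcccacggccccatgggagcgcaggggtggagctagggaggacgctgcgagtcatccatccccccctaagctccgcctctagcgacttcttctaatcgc
Rps4x: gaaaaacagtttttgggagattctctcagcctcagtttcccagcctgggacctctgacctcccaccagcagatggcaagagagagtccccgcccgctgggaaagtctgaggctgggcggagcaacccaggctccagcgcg
Rpl36a: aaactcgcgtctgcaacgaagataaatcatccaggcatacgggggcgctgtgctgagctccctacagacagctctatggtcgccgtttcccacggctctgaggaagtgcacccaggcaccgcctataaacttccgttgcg
Within these 140 bases Rpl39l held the letters 2 times and Rpl39 0 times. Neither Rps4x nor Rpl36a held them in this window, which says nothing about any factor.

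Totals ran from 1299715 to 1685510 counts for morula libraries, from 3397585 to 4361832 for ExE and from 19805264 to 26364085 for FGO. Pcgf1 fell in FGO KO from 37080 and 28293 reads to 767 and 452 (log2 change -5.56, SE 0.24, edgeR adjusted p = 1.96e-05), and Pcgf6 from 10434 and 11024 to 3893 and 4352 (-1.14, SE 0.19, adjusted p = 0.0102). Pcgf1 had 0 to 4 reads in every morula and ExE library and checks no label there. Pcgf6 reads in embryos can come from the paternal allele, and they were not examined by parent. In morulae it had 334 and 379 reads in CTR and 279 and 269 in matKO (-0.04, edgeR adjusted p = 0.915). In ExE it had 1249 and 1156 reads in CTR and 815, 707, 770 and 595 in matKO (-0.59, SE 0.13, edgeR adjusted p = 0.133). All matKO libraries of ExE lay below both CTR libraries, also when scaled to the library total. Neither change was called, so the labels of the embryos remain unchecked. The stage labels were checked on marker genes: the 12 oocyte markers summed to 17213 to 23449.6 CPM (counts scaled to the library total) in FGO and to 0.883 to 3.90 in ExE, and 10 blood markers summed to at most 1.48 CPM anywhere. The ExE library labelled matKO replicate 3 stood apart in the origin of its reads: 35.1% of its autosomal reads were maternal, against 51.2% to 51.5% in the other 5 ExE libraries, 50.5% to 51.0% in morula matKO and 51.4% in each morula CTR library.

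How much of a member can be seen differs between the stages, since FGO counts are of whole genes while morula and ExE counts are only of reads assigned to a parent. In FGO 1 member, Rpl3l, was at 0 in every library, and 80 of 82 had at least 20 reads in every library. In morulae Rpl3l, Rps10, Rps13, Rplp1, Rpl4 and Rps27l were at 0 in every library, and 61 members had at least 20 reads in every library. In ExE these 6 and Rpl32l, Rpl26, Rpl30, Rpl11 and Rps25 were at 0, 11 in all, and 55 reached 20 reads in every library. Rplp1, an acidic protein of the ribosomal stalk, had 3420 to 4554 reads per FGO library and 0 in each embryo library. A 0 in the embryo counts thus means that no read was assigned to a parent, and not that the gene had no RNA. Reads of the many processed pseudogenes of this family may also have been counted in or left out, which the sources used here do not say, and levels of near-identical copies are uncertain. Counts are not divided by length, so no member is ranked above another. For orientation, members that drew many reads in CTR included Rpl5 and Rpl37 in FGO (mean 589 and 488 CPM), Rps3 and Rps24 in morulae (894 and 347 CPM), and Rps3 and Rps14 in ExE (5049 and 1580.1 CPM). The fewest reads in FGO CTR fell on Rpl3l, Rpl32l (0.498 CPM) and Rpl10l (3.93 CPM).

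Together the 82 genes took 1.13% and 1.06% of the counts of the CTR oocytes and 1.19% and 1.06% of those of the KO oocytes. In morulae their share was 0.918% and 0.994% in CTR and 1.07% and 1.08% in matKO. In ExE it was 3.62% and 3.90% in CTR and 3.8%, 3.77%, 4.10% and 3.21% in matKO replicates 1 to 4. FGO CTR and KO libraries overlapped, both morula matKO libraries lay above both CTR libraries, and the matKO libraries of ExE spanned the CTR libraries. Two-sided exact permutation tests gave p = 0.667 in FGO, p = 0.3333 in morulae and p = 1.0 in ExE, where 2 against 2 libraries cannot go below 0.3333 and 2 against 4 not below 0.06667. The exact binomial 95% interval of a single library's share was narrow, 0.904% to 0.933% in the first morula CTR library and 3.60% to 3.64% in the first ExE CTR library, and covers counting error only.

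**Figure D1:**
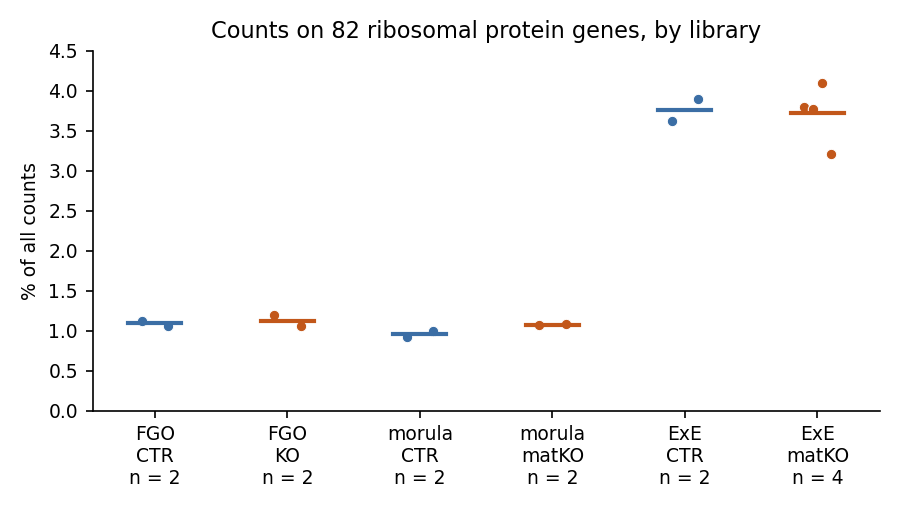
Share of all counts that fell on the 82 ribosomal protein genes (y axis, %), with each point a library and each line a group mean. The FGO and morula libraries sit between 0.918% and 1.19% and the ExE libraries between 3.21% and 4.10%, with ExE CTR inside the range of ExE matKO.

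In FGO the loss of Pcgf1 and Pcgf6 left most members within their spread. Of 81 members tested, 0 were called higher and 1 lower, Rps4l, at a Benjamini-Hochberg adjusted p under 0.05 over all genes (edgeR quasi-likelihood test), where 7.22% of 13459 genes were called, 720 higher (5.35%) and 252 lower (1.87%). The members' median log2 change was -0.04, against 0.00 over all genes tested, and 35 of 81 were above 0. Changes of other genes fell with read level, from 59.5% above 0 under 10 CPM to 26.4% between 200 and 500 CPM. The members' medians were -0.01 between 50 and 100 CPM, -0.08 between 100 and 200 and -0.02 between 200 and 500. Other genes at these levels had -0.06, -0.08 and -0.11. The 3 members under 10 CPM had a median of -0.33, beside 0.16. Scaling by library totals alone moved the median of all genes to 0.11 and that of the members to 0.061, with 53 of 81 above 0 and the same single call. Small subunit members had a median of -0.01 and large subunit members of -0.04. In CPM, 17 members had both KO libraries above both CTR libraries, 10 had both below, and the other 54 overlapped. Over all genes tested the shares were 32.1% above and 18.1% below.

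Rps4l lies on chromosome 6 (GRCm38.p6, 148354656 to 148355596) and resembles the X-linked Rps4x, so that reads of the pair may be shared. Its level was 65.2 and 67.2 CPM in CTR and 34.6 and 41.9 CPM in KO. The groups did not overlap, and it fell by 0.88 on the log2 scale (SE 0.19, edgeR adjusted p = 0.0293). The call was lost without FGO CTR replicate 2 (adjusted p = 0.0641), and over the other alternatives tried the adjusted p ran from 0.00046 to 0.044. Rps4x, the gene for the small subunit protein eS4, was at 258 and 231 CPM in CTR and 298 and 294 CPM in KO (log2 change 0.18, SE 0.15, adjusted p = 0.542), so the direction of the change in Rps4l was not shared by it.

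The germ line paralog Rpl39l was at 248 and 269 CPM in FGO CTR and 197 and 189.7 CPM in KO. Both KO libraries were below both CTR libraries, with a log2 change of -0.52 (SE 0.14) that missed the threshold (edgeR adjusted p = 0.0691). In edgeR it passed without the filter on low counts (adjusted p = 0.0234) and with the replicate number as a block (0.0209). It did not pass in edgeR with DESeq2 size factors (0.0707) or library totals (0.108), nor in the DESeq2 Wald test (0.0523). With a library left out, the log2 change of Rpl39l ran from -0.60 to -0.44. Its X-linked partner Rpl39, whose promoter is printed beside it above, was at 217 and 206 CPM in CTR and 215 and 174 CPM in KO, and its groups overlapped (-0.22, SE 0.14, adjusted p = 0.400). Rpl10l, the autosomal copy of Rpl10, was at 4.36 and 3.5 CPM in CTR and 5.63 and 4.65 CPM in KO (0.28, SE 0.29, adjusted p = 0.638). Rps27l went from 343 and 401 CPM to 546 and 467 CPM, with no overlap, but its change was not called (0.34, SE 0.15, adjusted p = 0.238), and Rps27 was at 43.8 and 41.8 CPM in CTR and 43.4 and 37.1 CPM in KO.

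**Figure D2:**
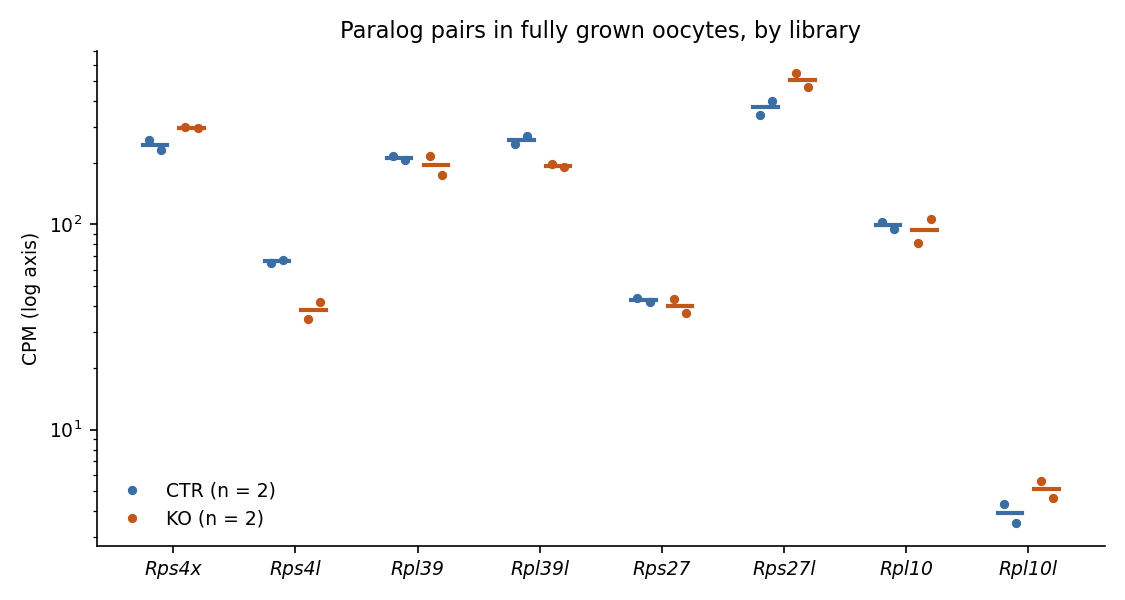
CPM (y axis, log scale) of 4 pairs of related ribosomal protein genes in FGO, with CTR libraries in blue, KO libraries in orange and lines at the mean of 2 libraries. Rps4l and Rpl39l have both KO points below both CTR points, and Rps27l, Rps4x and Rpl10l have both above.

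The stalk proteins, which recruit elongation factors to the ribosome, gave small changes in FGO. Rplp0, the base of the stalk, was at 322 and 288 CPM in CTR and 439 and 355 CPM in KO, with both KO libraries above CTR (log2 change 0.28, SE 0.14, adjusted p = 0.320). Rplp1 was at 173 and 160.4 CPM in CTR and 175 and 173 CPM in KO, and Rplp2 at 226 and 210.2 CPM and 269 and 228 CPM. Rpl5 and Rpl11, the pair that binds Mdm2, did not differ beyond their spread: Rpl5 was at 590.3 and 588 CPM in CTR and 470.4 and 612 CPM in KO, and Rpl11 at 79.7 and 82.2 CPM and 88.2 and 85.4 CPM (adjusted p = 0.628 and 0.991). Rps6, the substrate of S6 kinase, was at 91.0 and 80.9 CPM in CTR and 64.7 and 91.1 CPM in KO, with overlap. The laminin-binding protein gene Rpsa (0.31, SE 0.18), the patterning gene Rpl38 (-0.30, SE 0.14), Rps26 (-0.05, SE 0.14) and Rpl3 (0.03, SE 0.20) were not called.

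Of these members, Rpl5 and Rps6 had their lower KO value in KO replicate 1, which moved the count of calls. Without KO replicate 2, so that replicate 1 stands alone for KO, 6 members were called lower, Rpl10, Rpl34, Rpl39l, Rpl5, Rps4l and Rps6, whereas without KO replicate 1 Rpl37 and Rps4l were. Over all genes 14.3% were called without KO replicate 2, so 6 of 81 (7.41%) is no result about the members. With a single KO library the test assumes that it varies as the CTR libraries do, so neither set of calls is a result about the members. Rpl37 was at 513 and 463 CPM in CTR and 586 and 289.7 CPM in KO, so the KO libraries lay on either side of CTR.

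Genes that make and regulate ribosomes were read beside the members in FGO. Of 63 ribosome biogenesis factors tested, 0 were called higher and 1 lower, Rrs1, a factor for large subunit assembly (log2 change -2.78, SE 0.39, edgeR adjusted p = 0.00526), with a median of -0.04. Of 77 mitochondrial ribosomal protein genes 0 were called higher and 1 lower, Mrpl9 (-1.04, SE 0.17, adjusted p = 0.00856). Of 17 regulators from the mTOR and MYC pathways 1 was called, Eif4ebp1, which encodes a translation repressor inactivated by mTOR and rose by 2.95 (SE 0.25, adjusted p = 0.000598). None of 18 translation factors with a known TOP start, 20 initiation factors without one and 13 genes of RNA polymerase I transcription was called. Of 10 genes tested from a list of ribosome components and related genes that the symbol rule leaves out, 1 was called higher and 0 lower. It was Rps19bp1, a binding partner of Rps19 rather than a part of the ribosome (0.60, SE 0.14, edgeR adjusted p = 0.0398). The components Fau, Rps3a1, Rack1 and Rpl22l1 were not called. Of 16 p53 response genes 5 were called higher, where 5.35% of all genes were, and 0 lower; the 5 include Btg2 (1.36, SE 0.22, adjusted p = 0.00915), Plk2 (1.62, SE 0.30) and Sesn1 (2.00, SE 0.38).

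In morulae most members that were tested had somewhat higher values in matKO, but 0 of 72 were called, where 0.132% of 9063 genes were called (2 higher, 0.0221%, and 10 lower, 0.11%). DESeq2 and the other alternatives also called 0 members, while they called 7 to 524 of all genes. An unadjusted p under 0.05 was found for 14 of the 72 members (19.4%) and for 19.8% of all genes. Their median log2 change was 0.21, against -0.02 over all genes tested, and 53 of 72 were above 0. In CPM, 40 members had both matKO libraries above both CTR libraries, 8 had both below and 24 overlapped, where 23.5% of all genes tested lay above and 29.5% below.

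The smallest p belonged to Rps26, which sits at the mRNA exit channel, at 195 and 236 CPM in CTR and 292 and 290.1 CPM in matKO (log2 change 0.47, SE 0.13, edgeR adjusted p = 0.135). Rpl37a, of the large subunit, was at 204 and 232 CPM in CTR and 286 and 270.1 CPM in matKO (0.39, SE 0.12, adjusted p = 0.159). In both genes the groups did not overlap. Rps27 had 63 and 76 reads in CTR and 111 and 86 in matKO (0.85, SE 0.27, adjusted p = 0.161). The stalk genes Rplp0 (159 and 179.5 CPM against 205 and 222 CPM) and Rplp2 (280.0 and 297 CPM against 339 and 358 CPM) had the same order. Rps6 (157 and 168 CPM against 143 and 151 CPM) and the paralog Rpl39l (149.5 and 147 CPM against 142 and 117 CPM) lay the other way, and neither was called (-0.10, SE 0.14, and -0.16, SE 0.16).

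The direction in morulae moved with read level across the whole table. Genes other than members with at least 500 CPM had a median log2 change of 0.18 and 84.5% of them were above 0, while those under 10 CPM had a median of -0.20 and 39.1% were above 0. Between 200 and 500 CPM, 15 of 16 members were above 0 with a median of 0.26, beside 67.4% of 1264 other genes with a median of 0.10. Between 100 and 200 CPM, 13 of 19 members were above 0 with a median of 0.23, beside 54.1% of 1555 other genes with a median of 0.04. Between 50 and 100 CPM, 12 of 13 members were above 0 with a median of 0.21, beside 42.8% of 1642 other genes with a median of -0.07. Between 10 and 50 CPM, 11 of 18 members were above 0 with a median of 0.10, beside 40.8% of 3443 other genes with a median of -0.13. All 4 members under 10 CPM were below 0. Total counts were lower in matKO, at 0.809 of CTR on average, and the counts on the 82 genes were at 0.912 of CTR. The 9 trophectoderm markers, none at 0, summed to 2163 to 2353 CPM in CTR and 1352 to 1563 CPM in matKO, and the 12 oocyte markers, 3 at 0 in CTR and 2 in matKO, to 117 to 153 and 152 to 216 CPM. The part of depth and of these marker differences in the members' values was not tested. Ribosome biogenesis factors lay the same way, with 57 of 61 above 0, a median of 0.27 and 0 called.

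**Figure D3:**
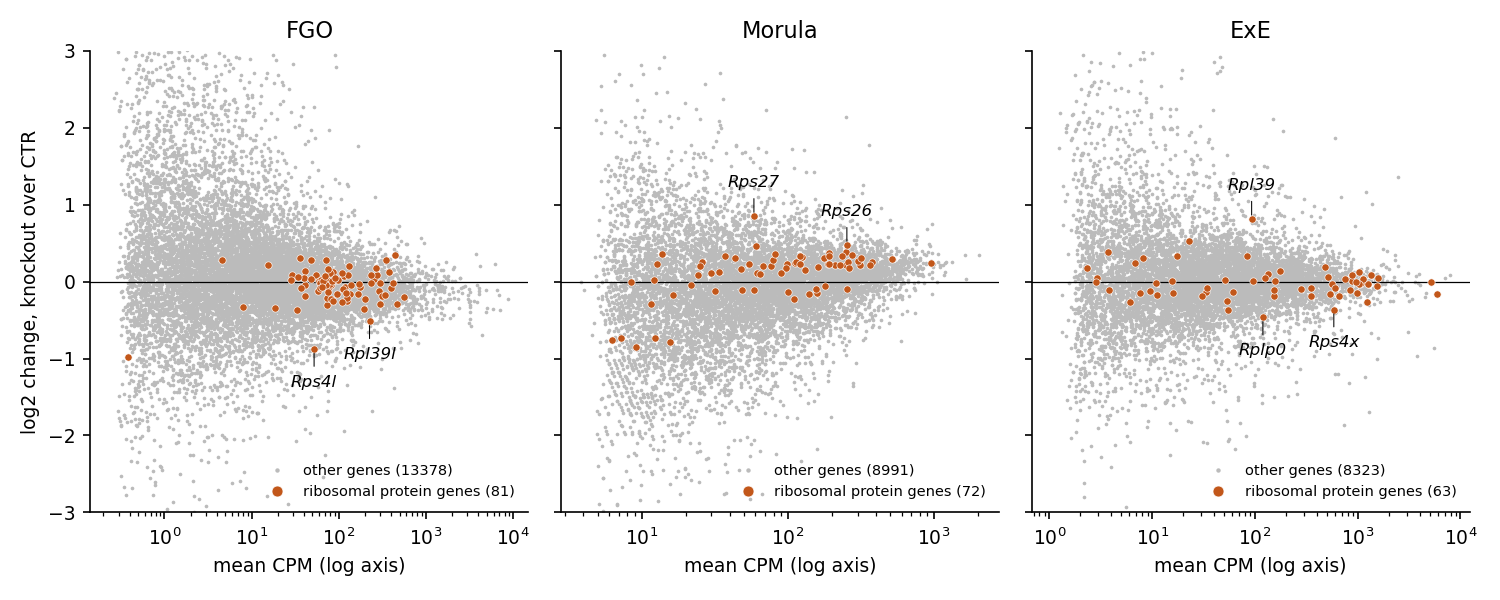
Log2 change of knockout over CTR (y axis, shown from -3 to 3) against mean CPM (x axis, log scale) in FGO, morulae and ExE, with ribosomal protein genes in orange and other tested genes in grey. The members centre on -0.04 in FGO, 0.21 in morulae and -0.02 in ExE, and in morulae genes of low count lie mostly below 0 and those of high count above.

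In ExE 0 of 63 members tested were called, where 0% of 8386 genes were called. DESeq2 and the replicate block also called 0 members, where they called 210 of 13137 and 923 of 8386 genes. An unadjusted p under 0.05 was found for 1 member and for 13.8% of all genes. The members' median log2 change was -0.02, against 0.00 over all genes, and 27 of 63 were above 0. In CPM, 2 members, Rps28 and Rpl27a, had all 4 matKO libraries above both CTR libraries, 2 others, Rpl7 and Rplp0, had all 4 below, and 59 overlapped, where 12.5% of all genes tested lay above and 11.3% below. Without matKO replicate 3, which stood apart in its alleles, 12 of 63 were above 0, with a median of -0.10 and 0 called. Without matKO replicate 4, 38 of 63 were above 0 (median 0.046), and without CTR replicate 2, 42 of 64 (median 0.054), so the sign of the median rests on single libraries. Rplp0 was at 147 and 142 CPM in CTR and 113, 123, 92.4 and 98.9 CPM in matKO (log2 change -0.47, SE 0.16, edgeR adjusted p = 0.248). Rpl7, of the large subunit, was at 677 and 731 CPM in CTR and 666, 659.5, 608 and 599 CPM in matKO. Rps28, at the exit of the mRNA channel, had 75 and 75 reads in CTR and 130, 92, 106 and 65 in matKO (0.52, SE 0.26, adjusted p = 0.390). Rpl27a was at 66.1 and 73.4 CPM in CTR and 89.7, 88.2, 103 and 78.9 CPM in matKO, all 4 higher (0.34, SE 0.17, adjusted p = 0.411). None of the 60 biogenesis factors, 64 mitochondrial ribosomal protein genes or 12 TOP translation factors tested was called either. Summed marker levels differed between these groups in part. The 9 trophectoderm markers, none at 0 in every library of a group, summed to 8035 to 8479 CPM in CTR and 2794 to 5596 CPM in matKO, but their median level was 74.5 to 116 CPM in CTR and 93.9 to 131 CPM in matKO, and 4 of 8 tested had a log2 change above 0. The 12 ExE markers, 1 at 0, summed to 1698 to 1806 CPM in CTR and 1651 to 1799 CPM in matKO, and 10 visceral endoderm markers, 7 at 0 in CTR and 1 at 0 in matKO, to 2.29 to 4.27 and 9.18 to 30.1 CPM. The part of these marker differences in the members' values was not tested. In such bulk libraries fewer cells of a type and less RNA per cell cannot be told apart.

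The change with knockout was not shown to differ between stages for any member. Of 81 members tested for morulae against FGO, 0 were called, where 2.62% of 14719 genes were called, 0.38% higher and 2.24% lower. The smallest p there were those of Rps29 (difference of log2 changes 0.75, SE 0.21, edgeR adjusted p = 0.0935), Rps27 (1.03, SE 0.31, adjusted p = 0.114) and Rps4l (0.81, SE 0.27, adjusted p = 0.149). Of 75 members tested for ExE against morulae, 0 were called, where 0.34% of 11182 genes were called, 0.277% higher and 0.0626% lower, with Rplp0 (-0.90, SE 0.23, adjusted p = 0.107) first. An unadjusted p under 0.05 was found for 10 and 13 members (12.3% and 17.3%), beside 15.9% and 13.2% of all genes. These tests share the morula libraries, and on simulated counts they recovered only 1% and 6% of 2-fold differences. The 81 members include Rps10, Rps13, Rplp1, Rpl4 and Rps27l, at 0 in every morula library, for which no difference could be shown. The 75 likewise include members at 0 in every ExE library, such as Rpl11. For morulae against FGO, counts of reads assigned to a parent were also fitted beside counts of whole genes.

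Between the control stages the members' assigned reads differed widely, in both directions. Of 74 members tested in CTR ExE against CTR morulae, 42 were called higher and 20 lower in ExE, where 67.5% of 9977 genes were called, 27.8% higher and 39.7% lower. The lower calls include members such as Rps15a, Rpl15 and Rps25, which entered the test through their morula reads. They had almost no assigned reads in ExE, which does not show that their RNA was low there. The members' median log2 difference was 1.12, against -0.28 over all genes. With scaling by library totals alone, the split was 34 higher and 27 lower (82.4% called, beside 69.9% of all genes). The members' median was then 0.44 and that of all genes -0.95. Small subunit members had 18 higher and 7 lower of 28 tested, and large subunit members 24 and 13 of 46. With the same TMM scaling, the ribosome biogenesis factors had 42 higher and 6 lower of 61, the TOP translation factors 10 and 4 of 14, the mitochondrial ribosomal protein genes 47 and 10 of 73, and the p53 response genes 1 and 13 of 17.

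Rps29, a small zinc-binding protein of the small subunit, was at 53.4 and 49.8 CPM in morulae and 699 and 771 CPM in ExE (log2 difference 4.5, SE 0.18, edgeR adjusted p = 4.43e-09). Rpl32 rose from 109 and 115 to 1259 and 1261 CPM (4.16, SE 0.16), Rpl13 from 101 and 109 to 971 and 931 CPM (3.85, SE 0.16) and Rpl24 from 99.7 and 108 to 933 and 997 CPM (3.88, SE 0.17). The rise of Rps29 and Rpl13 was in paternal reads: from maternal counts alone the log2 difference was -5.80 and -0.47. Rps4x (3.25, SE 0.16), Rplp2 (3.07, SE 0.16), Rpl36a (2.18, SE 0.17), Rps26 (2.04, SE 0.17) and Rpsa (1.59, SE 0.27) were also higher, with Rpl36a at -2.21 from paternal counts alone. Rplp0 (0.44, SE 0.18, adjusted p = 0.0413) and Rps6 (0.65, SE 0.18, adjusted p = 0.00712) were called higher, yet they turned to -0.23 and -0.025 with scaling by library totals, and both calls were lost without either morula library. Rps27, Rpl39 and Rpl10 were not called, at -0.66 (SE 0.32), -0.17 (SE 0.22) and -0.19 (SE 0.28). With library totals they were called lower, at -1.34, -0.85 and -0.87 (adjusted p = 0.00327, 0.00525 and 0.0175). From paternal counts alone Rpl39 was at -3.31 and Rpl10 at -2.86, both called, and from maternal counts at 0.44 and 0.20, neither called.

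Members that were lower in ExE were often near 0 there. Rps15a had 277 and 307 reads in morulae and 1 and 1 in ExE, Rpl15 165 and 183 against 4 and 4, Rps25 116 and 122 against 0 and 0, and Rpl39l 252 and 233 against 0 and 4. Rpl10l went from 424 and 449 reads to 73 and 53 (log2 difference -3.52, SE 0.24, adjusted p = 1.13e-07). Rpl3, which builds the catalytic centre, was also called lower, at 66 and 82 reads against 73 and 28 (log2 difference -1.28, SE 0.43, adjusted p = 0.0207). The call was lost without morula CTR replicate 2 (adjusted p = 0.145), without ExE CTR replicate 2 (0.102) and from paternal counts (0.241). Rpl38 was called lower too, at 44 and 34 reads against 16 and 18 (-1.90, SE 0.45). Rpl11 went from 14 and 26 reads to 0 and 0, and Rpl5 had too few reads to compare, 10 and 7 against 4 and 9. Rps15a, Rpl15 and Rps25 encode core proteins of the ribosome, whereas Rpl39l and Rpl10l are restricted paralogs. Of 54 members with at least 50 reads in every morula library, Rps15a, Rpl15, Rps25 and Rpl39l had at most 5 in every ExE library (7.41%), beside 371 of 4790 genes over the whole table (7.75%). Rack1, a small subunit component outside the symbol rule, had 443 and 481 reads in morula CTR and 0 in each ExE library. The rule by which reads were assigned to a parent is not given in the sources used here, and its part in the stage differences was not tested.

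Read by parental allele, many members drew unequal reads from the B6.129 and PWK copies. The embryos analysed here came from the same direction of cross, so strain and parent of origin cannot be told apart. In CTR morulae 15 of 67 members tested were shifted to the paternal and 9 to the maternal allele, where 25.2% of 7938 genes were called (10.6% paternal, 14.6% maternal). In CTR ExE 25 of 54 were paternal and 11 maternal, where 29.3% of 6916 genes were called (13.2% paternal, 16.1% maternal). The fits compared each gene with the autosomal totals of the alleles, left out X-linked genes in ExE, and needed a mean of 20 reads per library. Of autosomal members with that many reads in CTR, 20.6% of 63 lay outside 30% to 70% maternal in morulae, beside 15.5% of other autosomal genes, and 46.3% of 54 in ExE, beside 11.9%.

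The members called paternal most clearly were Rpl23a, Rpl19, Rpl24, Rpl13 and Rpl27 in morulae and Rpl23a, Rpl13, Rpl19, Rps29 and Rpl27 in ExE, by smallest p in that direction. Rpl19, a large subunit protein that bridges the subunits, had 73 and 61 maternal against 279 and 281 paternal reads in morula CTR, and 7 and 16 against 5147 and 5882 in ExE CTR. Its maternal share was 19.3% ± 2.05 (SD, n = 2) in morulae and 0.204% ± 0.0958 in ExE. Rps29 had 24 and 18 maternal against 66 and 61 paternal reads in morulae, and 1 and 0 against 2948 and 3362 in ExE. Rpl23a was at 16.6% ± 0.723 maternal in morulae and 1.69% ± 0.00654 in ExE (SD, n = 2), and Rpl13 at 11.4% ± 0.553 and 0.601% ± 0.0902. Rpl24 took the other course, from 9.41% ± 0.675 to 24.2% ± 1.45 maternal. In these 4 genes and Rps29 the paternal reads outnumbered the maternal reads in each CTR library of both stages.

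The maternal side was led by Rplp0, Rps19, Rps18, Rpl35a and Rps2 in morulae and by Rpl35a, Rps19, Rpl37a, Rps18 and Rplp0 in ExE. Rpl35a, a large subunit protein, had 112 and 111 maternal against 3 and 9 paternal reads in morula CTR, and 2154 and 2767 against 4 and 7 in ExE CTR. Rps2 was at 97.9% ± 2.98 maternal in morulae (SD, n = 2) and had too few reads in ExE. Rplp0 was at 93.0% ± 0.461 maternal in morulae and 90.6% ± 0.0817 in ExE (SD, n = 2). Rps18 was at 82.8% ± 1.39 and 97.3% ± 0.202, and Rps19 at 65.7% ± 0.868 and 89.7% ± 0.402. Balanced members were present as well, such as Rps3 at 49.7% ± 0.144 and 45.9% ± 0.323.

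Of 52 autosomal members with a mean of 20 reads in CTR at both stages, 43 lay on the same side of 50% at both, 41 were farther from 50% in ExE and 8 differed by over 20 percentage points. The same counts were not made for other autosomal genes, so none of them is shown to be particular to the members. Rpl37 was the farthest apart and changed side, with 113 and 112 maternal against 35 and 41 paternal reads in morulae and 41 and 31 against 449 and 521 in ExE. Its maternal share was 74.8% ± 2.23 in morulae and 6.99% ± 1.95 in ExE (SD, n = 2). Rpl21 went from 52.8% to 11.2% maternal and Rpl17 from 34.1% to 67.0%. These differences between stages were not tested. Rps29, Rps19, Rpl37a, Rps26 and Rpl3 were the other 5.

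**Figure D4:**
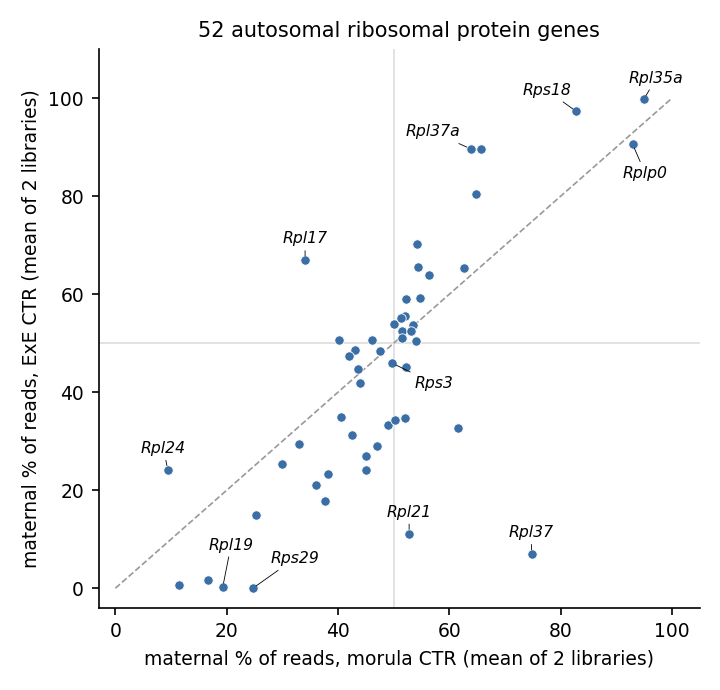
Maternal share of reads (%) of 52 autosomal ribosomal protein genes in CTR morulae (x axis) and CTR ExE (y axis), each point a gene and the mean of 2 libraries per stage, with equality dashed and 50% in grey. Most points keep their side of 50% and lie farther from it in ExE, Rpl37 falls from 74.8% to 6.99%, and Rps3 stays near 50%.

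Maternal knockout did not move these balances detectably. Of 64 members tested in morulae, 0 shifted, where 0.0393% of 7637 genes were called, and 2 members and 626 of all genes had an unadjusted p under 0.05. Of 54 members tested in ExE, 0 shifted, where 0.0729% of 6857 genes were called, 0.0292% to the paternal and 0.0438% to the maternal allele, and 6 members and 435 of all genes had an unadjusted p under 0.05. The smallest p in morulae was that of Rpl27 (log2 shift to the paternal allele 0.48, SE 0.15, edgeR adjusted p = 0.482), and in ExE that of Rpl21 (-0.62, SE 0.17, adjusted p = 0.372). In ExE matKO replicate 3, with its low autosomal maternal share, 26.7% of the members' reads were maternal, against 42.0% to 42.4% in the other 3 matKO libraries and 42.3% and 42.6% in CTR. Replicate 3 had the lowest maternal share of the 4 matKO libraries in 49 of 54 autosomal members, a count not made for other autosomal genes. Without it 1 member, Rpl37a, was called (1.85%, beside 0.203% of all genes), with a shift of 0.38 (edgeR adjusted p = 0.0399).

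The members on the X chromosome, Rps4x, Rpl36a, Rpl39 and Rpl10, are read apart. In female mouse trophoblast the paternal X is silenced by imprint, and male embryos carry no paternal X. The labels do not give the sex of the embryos, and its part in the values below was not tested. Of reads on other X-linked genes, 24.3% and 25.5% were paternal in morula CTR and 37.7% and 42.0% in matKO. In ExE 2.33% and 1.78% were paternal in CTR and 0.141%, 41.2%, 36.6% and 0.139% in matKO replicates 1 to 4. The ExE matKO libraries thus fell into 2 with almost no paternal X reads and 2 with many.

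Rpl39, which lines the tunnel for the growing peptide, followed the rest of the X in ExE. It had 12 and 13 paternal reads in CTR and 3, 560, 409 and 6 in matKO, beside 221 and 277 maternal reads in CTR and 211, 134, 178 and 167 in matKO. Its total was 55.2 and 66.5 CPM in CTR and 52.3, 173, 159 and 50.9 CPM in matKO. Rpl36a had 12 and 66 paternal reads in CTR and 4, 1213, 998 and 4 in matKO, beside 1732 and 1930 maternal reads in CTR and 1963, 1145, 1199 and 1264 in matKO. Rpl10, at the site where the subunits are licensed to join, had 3 and 12 paternal reads in CTR and 0, 41, 48 and 0 in matKO. In all 3 the paternal allele was frequent in matKO replicates 2 and 3 alone.

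Rps4x differed from these in the control libraries. It had 2147 and 2184 paternal reads against 757 and 762 maternal reads in ExE CTR, so that its maternal share was 25.97% ± 0.143 (SD, n = 2), while Rpl39, Rpl10 and Rpl36a were at 95.2% ± 0.472, 95.4% ± 3.12 and 98.0% ± 1.85. In matKO replicates 1 to 4 it had 3, 2888, 3162 and 4 paternal and 692, 599, 436 and 456 maternal reads. Its total, 688 and 675 CPM in CTR, was thus 169.9, 871, 972 and 135 CPM in matKO. The matKO libraries lay on both sides of CTR, and the test gave a log2 change of -0.37 with an SE of 1.01 (edgeR adjusted p = 0.910). Rps4l, the autosomal relative, stayed between 521 and 696 CPM in all 6 libraries, and its paternal reads did not vanish where those of Rps4x did (1207 and 957 in matKO replicates 1 and 4).

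**Figure D5:**
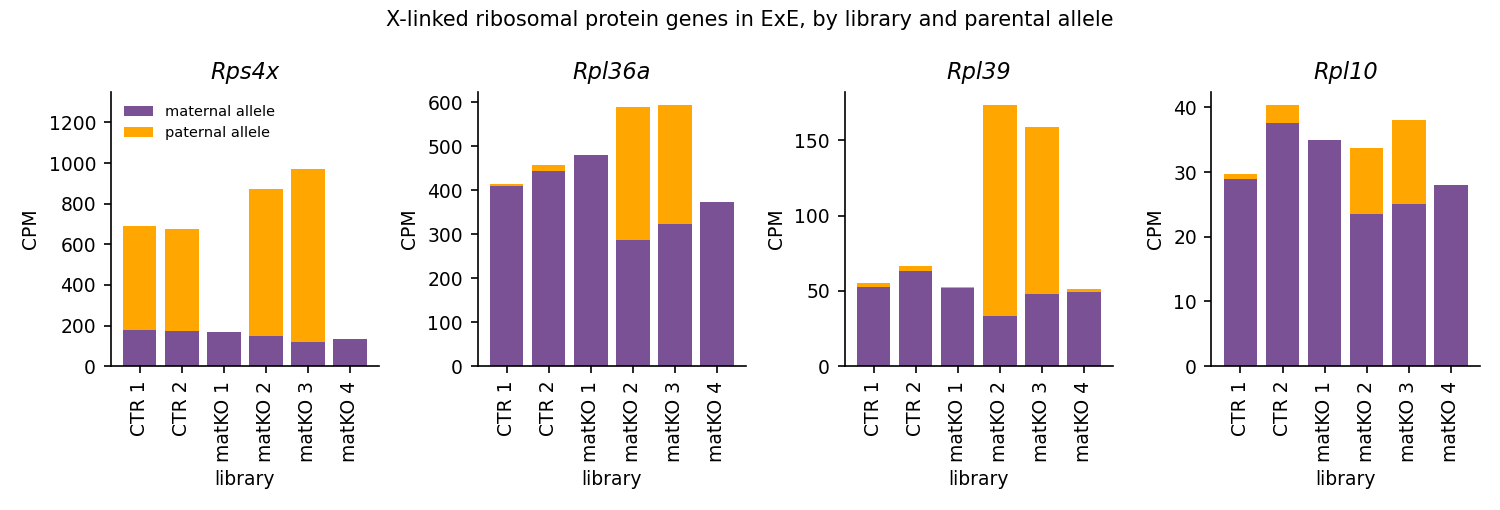
CPM (y axis, starting at 0, with its own scale in each panel) of Rps4x, Rpl36a, Rpl39 and Rpl10 in the 6 ExE libraries, stacked by maternal (purple) and paternal (orange) allele. Paternal reads are frequent in matKO replicates 2 and 3 for each gene and nearly absent from replicates 1 and 4, while in both CTR libraries they are frequent for Rps4x alone.

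In morulae the 4 X-linked members had reads from both alleles in every library. Of the 4, Rps4x alone had more paternal than maternal reads in each library, in CTR 122 and 128 against 59 and 64, and in matKO it had 114 and 125 against 50 and 55. Rpl36a had 101 and 112 paternal reads of 242 and 257 in CTR and 104 and 126 of 212 and 238 in matKO, and Rpl39 77 and 70 of 189 and 169 in CTR and 65 and 97 of 161 and 194 in matKO. In the fit for CTR morulae Rps4x was called paternal (log2 1.10, SE 0.15, edgeR adjusted p = 0.00648) and Rpl10 maternal (-1.06, SE 0.22, adjusted p = 0.0226), and Rpl39 and Rpl36a were not called (adjusted p = 0.0921 and 0.0991). These calls are relative to autosomal totals and not to the X. Rpl10 was at 68.8% maternal, while other X-linked genes were at 24.3% and 25.5% paternal in these libraries. A maternal bias particular to Rpl10 is thus not shown. None of the 4 shifted with matKO in morulae, the smallest p being that of Rpl36a (0.45, SE 0.17, adjusted p = 0.593).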

How the data were processed

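Per the labels' protocols, cDNA was made with the SMART-Seq v4 kit and tagged with Nextera XT, kits that do not mark strand. The authors deposited a table of raw counts per gene, 24 columns for 14 libraries, per the file headers: 1 column per FGO library and 1 maternal and 1 paternal column per morula or ExE library, which were summed for tests of expression. The series also has 4 wild-type morula RNA samples of the reciprocal crosses B6 x PWK and PWK x B6, not analysed here. The submitters' processing notes name bcl2fastq 2.17, Trim Galore 0.6.4, STAR 2.7.3, RSEM 1.3.1 and the build mm10, among other tools. Which of them made the counts, with what annotation, how a read was given to a parent, and what was done with reads that match several places, is not given in the sources used here. All 82 members matched RefSeq genes of GRCm38.p6 by symbol.

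Groups were taken from the labels. Each comparison was fitted on the whole table with edgeR 4.0.16 (R 4.3.3): TMM factors, filterByExpr, robust quasi-likelihood F test, Benjamini-Hochberg adjustment over all genes tested, threshold 0.05. Differences between stages used an interaction term, and alleles a term per library and an allele term with autosomal totals as offsets and a minimum mean of 20 reads. For shares of counts, exact permutation tests (two-sided, scipy 1.17.1) were used, and their intervals are 95% Clopper-Pearson intervals. Library totals, given in the report, make a floor of 3 counts 1.78 to 2.31 CPM for morulae, 0.688 to 0.883 CPM for ExE and 0.114 to 0.151 CPM for FGO, covering counting error only. The tests were tried on simulated counts first, where many changes were missed. The knockout fits recovered 39% of 2-fold changes in FGO, 35% in morulae and 36% in ExE, and 90%, 93% and 97% of 4-fold changes. The allele shift fits recovered 29% of 2-fold changes in morulae and 66% in ExE. The stage differences recovered 1% (morulae against FGO) and 6% (ExE against morulae) of 2-fold and 38% and 50% of 4-fold changes. Alternatives, 59 in all, include DESeq2 1.42.0, other scalings, no filter, a replicate block and leaving out each library.

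The members and gene lists were chosen with earlier results of these data known. Named are 19 members fixed by name, up to 5 called members per direction and comparison (otherwise the 3 of smallest p), the 3 with most and fewest reads per stage, the most maternal and paternal members, and the first called members of each list. Some genes that this rule picks are not reported here. Rpl37, Rpl21, Rpl17, Rps3, Rpl7, Rpl34 and the paralog partner Rps4l in embryos were named after their values were seen.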

Additional observations from a re-analysis of the deposited data

Results flagged for a closer look

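Among the 4 ExE matKO libraries, 1 library lay far from the other 3 in several measures, by Dixon's criterion at 95%, which chance meets in about 1 of 20 groups. Replicate 3 stood apart in its autosomal maternal share (35.1%) and in the maternal share of the members' reads together (26.7%). The maternal share of 1 library stood apart in 26 of 54 autosomal members. This count was not made for other autosomal genes, so it is not shown to be particular to the members. Among the members named in the report, replicate 3 was the low library for Rps26 (14.6%), Rpl27 (7.12%), Rpl24 (13.3%), Rps28 (27.4%), Rps6 (22.1%), Rps4l (32.0%), Rps19 (81.9%), Rplp2 (18.4%) and Rpl35a (99.7%, against 99.8% in each of the others). For Rps29 it was replicate 4, at 0.147% maternal with 0% in the other 3.

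The summed level of 1 library stood apart in 4 of the 54 autosomal members, a count not made for other genes. Among them, Rps12 was at 65.4 CPM and Rpl21 at 236 CPM in replicate 3, both above the other 3 libraries. The source of the paternal excess in replicate 3 was not tested.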

How the results depend on the processing

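Under the 59 alternatives, the main results (counts of calls, medians and shares of counts) gave 145 values alike, 14 moved and 3 reversed. A count was alike if it changed by a small factor at most, and a share if it kept its sign. A median was alike if it moved by less than the SD of the library medians. Medians near 0 could thus change sign and still be alike. The ExE median, -0.02, did so without CTR replicate 2 (0.054), without matKO replicate 4 (0.046) and with library totals (0.0096). The FGO median, -0.04, did so without CTR replicate 1 (0.014). In FGO the members' count of calls, 1, was 2 without the filter on low counts and 2 with the replicate block, and 0 to 6 when a library was left out. The members' median in FGO became 0.061 with library totals. Replicate numbers gave correlations of 0.290 in FGO, 0.177 in morulae, 0.261 and 0.101 in ExE and 0.013 between stages, and nothing in the labels says that they pair samples. The replicate block called 61 members between CTR stages, against 62, and 0 in morulae and ExE, as before. Over all genes it called 2021 in FGO, 310 in morulae and 923 in ExE, against 972, 12 and 0 without it. For the allele results, whose fits hold a term per library, and for the interactions no replicate block was made.

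For CTR ExE against CTR morulae the members' median, 1.12, was 0.44 with library totals, 0.45 from maternal and 0.88 from paternal counts, and 1.06 to 1.27 when a library was left out. Single genes turned: Rps29 -5.80 and Rpl13 -0.47 (maternal counts), Rpl36a -2.21 (paternal counts), Rplp0 -0.23 and Rps6 -0.025 (library totals). The difference in share of counts, knockout minus CTR in percentage points, was 0.0347 in FGO (-0.0335 to 0.103 with a library left out) and -0.0445 in ExE (-0.184 to 0.125, with 0.0951 without CTR replicate 2). When a library was left out, calls of 0 did not always stay at 0 for morulae against FGO and ExE against morulae. For the allele shift in ExE, 1 member was called without matKO replicate 3 (1.85%, beside 0.203% of all genes). The cause of these changes was not tested. Allele balance without 1 of its 2 libraries could not be fitted, since no residual degrees of freedom remain. Morula counts are shallow, and members at 0 there or in ExE are below what assigned reads can show.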
